A study of Mus musculus with 4 samples.

Results

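The genes described are 10 that the tumor suppressor p53 is known to switch on, chosen by name: *Cdkn1a*, *Mdm2*, *Ccng1*, *Trp53inp1*, *Phlda3*, *Gdf15*, *Bax*, *Sesn2*, *Plk2* and *Btg2*. They are 10 of the 32285 genes counted in every section. The data come from 4 Visium sections of left kidneys of male wild-type C57BL/6J mice aged 7 to 8 weeks, 2 from normal kidneys and 2 from kidneys exposed to ischemic reperfusion injury. In the ischemic group both renal pedicles were clamped for 30 min and the kidneys were taken 24 h later. Kidneys of both groups were snap-frozen and cut at 10 µm, and all 4 sections lay on 1 slide. Whether the normal mice had an operation without clamping is not stated in the sources that were used. Visium records polyadenylated transcripts at barcoded spots that each cover several cells, and molecules are told apart by a unique molecular identifier (UMI).

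p53 is a transcription factor that is kept at a low level by the ubiquitin ligase MDM2, and DNA damage and other cellular stress release it from this control. It then binds DNA at sites made of 2 copies of a 10-base sequence and turns on genes that stop the cell cycle, repair DNA or start apoptosis. *Cdkn1a* encodes p21, an inhibitor of cyclin-dependent kinases (CDKs), and in the kidney it is known as a gene that rises in tubular cells after acute injury. Several of these genes also answer to other inputs, since *Gdf15* and *Sesn2* are induced through the integrated stress response and *Btg2* and *Plk2* behave as immediate early genes.

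On mouse genome build GRCm38 (mm10), GENCODE places *Cdkn1a* at chr17:29090976-29100727, *Mdm2* at chr10:117688875-117710758, *Ccng1* at chr11:40748552-40755311 and *Trp53inp1* at chr4:11156431-11174379. *Phlda3* lies at chr1:135766119-135769136, *Gdf15* at chr8:70629393-70632456, *Bax* at chr7:45461697-45466898, *Sesn2* at chr4:132492032-132510501, *Plk2* at chr13:110395046-110400844 and *Btg2* at chr1:134075170-134079120. All 10 are protein coding. The window of 3 kb on each side of the RefSeq start sites was searched for the 20 bases of a p53 site, 2 such copies without a spacer, allowing up to 2 mismatches outside the cores. Each core is a C, 2 bases that are A or T, and a G. Of the 9 genes with a start site in the RefSeq promoter table, 4 held such a sequence, and 1173 of 27025 genes (4.34%) did. With at most 1 mismatch these numbers were 3 of 9 and 266 of 27025 (0.984%). A match is a description of the letters and not evidence of binding. *Trp53inp1* was not in that table. The sequences found are shown because p53 sites are what the 10 genes are named for, each written 5′ to 3′ on the strand of its gene with the cores in capitals. Distances are to the nearest start, since *Cdkn1a* and *Gdf15* have 2 starts each in that table. The *Cdkn1a* site is placed by the start at chr17:29090979, and the other start lies downstream at chr17:29093769.

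Cdkn1a, chr17:29090928-29090947, plus strand, 42 bp upstream of the start site, 1 mismatch: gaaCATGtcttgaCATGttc
Ccng1, chr11:40754936-40754955, minus strand, in an intron 340 bp downstream of the start site, 1 mismatch: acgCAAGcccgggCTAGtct
Gdf15, chr8:70631966-70631985, minus strand, in an exon 119 bp downstream of the start site, 1 mismatch: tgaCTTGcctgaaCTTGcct
Plk2, chr13:110392882-110392901, plus strand, 2153 bp upstream of the start site, 2 mismatches: caaCATGcccgggCTTGcat
Plk2, chr13:110394394-110394413, plus strand, 641 bp upstream of the start site, 2 mismatches: gatCTTGcttagaCTTGttg

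The promoter windows, from 250 bases before to 50 after each start, were also searched on both strands for other elements. The cAMP response element TGACGTCA, the site of CREB and ATF factors, was in the windows of *Btg2* and *Plk2*, and in 1.79% of 32851 windows in all. The AP-1 element TGANTCA (7.81% of all windows), the C/EBP-ATF element TGATGNAA (3.97%), the CArG box (1.63%) and the TATA box TATAAA (13.6%) were found in none of the 11 windows of the 9 genes. The GC box GGGCGG was in 7 of these windows (35.7% of all windows), the CCAAT box in 5 (37.4%) and a pair of p53 cores in 2 (7.22%), those of *Cdkn1a* and *Plk2*. The stretches that hold the p53 site of *Cdkn1a* and the cAMP response elements follow. *Cdkn1a*, *Btg2* and *Plk2* were among 7 of the 10 genes that rose in the outer stripe, and a link of these elements to the rise was not tested. The stretches come from RefSeq on GRCm38.p6, with the p53 cores or the response element in capitals. That of *Cdkn1a* is counted from its start at chr17:29090979.

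Cdkn1a, chr17:29090879-29090968, plus strand, 100 to 11 bases before the start: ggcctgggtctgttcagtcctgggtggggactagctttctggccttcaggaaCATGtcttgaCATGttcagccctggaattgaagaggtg
Btg2, chr1:134079256-134079355, minus strand, 200 to 101 bases before the start: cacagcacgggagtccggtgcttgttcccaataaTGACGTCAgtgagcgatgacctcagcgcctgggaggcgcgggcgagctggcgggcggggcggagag
Plk2, chr13:110394944-110395033, plus strand, 100 to 11 bases before the start: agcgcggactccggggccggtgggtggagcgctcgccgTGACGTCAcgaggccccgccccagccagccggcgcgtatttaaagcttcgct

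The sections held 25957128 to 44528078 UMIs over 2401 to 2682 spots, with the deepest section being normal section 1. Whole-section counts of the 2 normal sections differed from each other by a chi-square of 41.9 per gene and those of the 2 ischemic sections by 7.31, so no pair was the same library. Marker genes in a spot and its neighbours placed it in 1 of 5 zones, which were cortex, outer stripe, inner stripe, inner medulla and pelvis. The injury genes *Havcr1* and *Lcn2* rose in the ischemic sections with log2 fold changes of 9.64 and 8.78. The zone markers themselves moved with ischemia. The summed CPM (counts scaled to a common library size) of the outer stripe list in the spots called outer stripe was 3023 to 3127 in normal and 463 to 489 in ischemic sections. The inner medulla list reached 6207 to 6283 CPM in the spots called outer stripe of the ischemic sections, above the 4110 to 4248 CPM of their inner medulla, and without *Cryab* and *Akr1b3* it was at 259 to 335 CPM against 1715 to 2350 CPM. When neighbours were left out, 80.6% to 84.6% of cortex spots, 61.2% to 74.4% of outer stripe spots, 57.8% to 64.4% of inner stripe spots and 60.4% to 70.3% of inner medulla spots kept their zone. Pelvis spots kept it in 66.4% and 63.0% of cases in normal sections and in 28.3% and 28.5% in ischemic sections. A lower value in a zone can mean fewer cells of a type or less RNA per cell, and these cannot be told apart here. Capture area and condition cannot be told apart either, since the normal and the ischemic sections lay on different areas of the slide.

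In whole sections, *Cdkn1a* and *Gdf15* rose most among the 10 genes, by 8.86 and 6.82 times. *Phlda3*, *Btg2* and *Bax* rose by 1.51 to 1.59 times, *Plk2* by 1.31 times and *Mdm2*, the feedback inhibitor of p53, by 1.20 times. Of the 10 genes, 7 rose, where 60.6% of the 15305 genes tested passed the same test (31% higher and 29.7% lower), so that a change is common in these sections. *Ccng1*, *Trp53inp1* and *Sesn2* did not pass the test, with log2 fold changes of -0.09, -0.07 and -0.20 that turned to 0.20, 0.20 and 0.08 when counts were scaled by library totals alone. The test was edgeR's quasi-likelihood test on counts summed per section and scaled by TMM factors, with Benjamini-Hochberg adjustment over all genes and a threshold of 0.05. The median log2 fold change was 0.49 over the 10 genes and 0.04 over all genes. Scaling by library totals alone moved the median over all genes to 0.31 and the share of higher genes among those called from 51.1% to 67.0%, and it left the number of the 10 genes that rose at 7. Of all 15305 genes, 5754 rose with that scaling. Without ischemic section 1, 4 of the 10 genes passed the test. Without normal section 2, 9 did, since *Ccng1* (-0.27) and *Sesn2* (-0.29) then passed as lower. The *Plk2* call was lost with DESeq2 (0.35) and without normal section 1 (0.26) or either ischemic section (0.48 and 0.32). Sections did not overlap between groups for 7 genes that were higher in whole sections and 2 that were lower, where 43% and 39.2% of all genes did so. All 10 genes passed the filter on low counts in whole sections and in zones.

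*Cdkn1a* had the largest change of the 10. Over whole sections its level was 5.74 and 5.54 CPM (TMM-normalized) in normal sections 1 and 2 and 49.4 and 50.8 CPM in ischemic sections 1 and 2. The ischemic sections were both far above the normal sections and close to each other. The log2 fold change was 3.15 ± 0.10 (SE), with an edgeR adjusted p of 9.66e-08, and *Cdkn1a* ranked 263 from the top among 15305 genes by fold change.

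**Figure D1:**
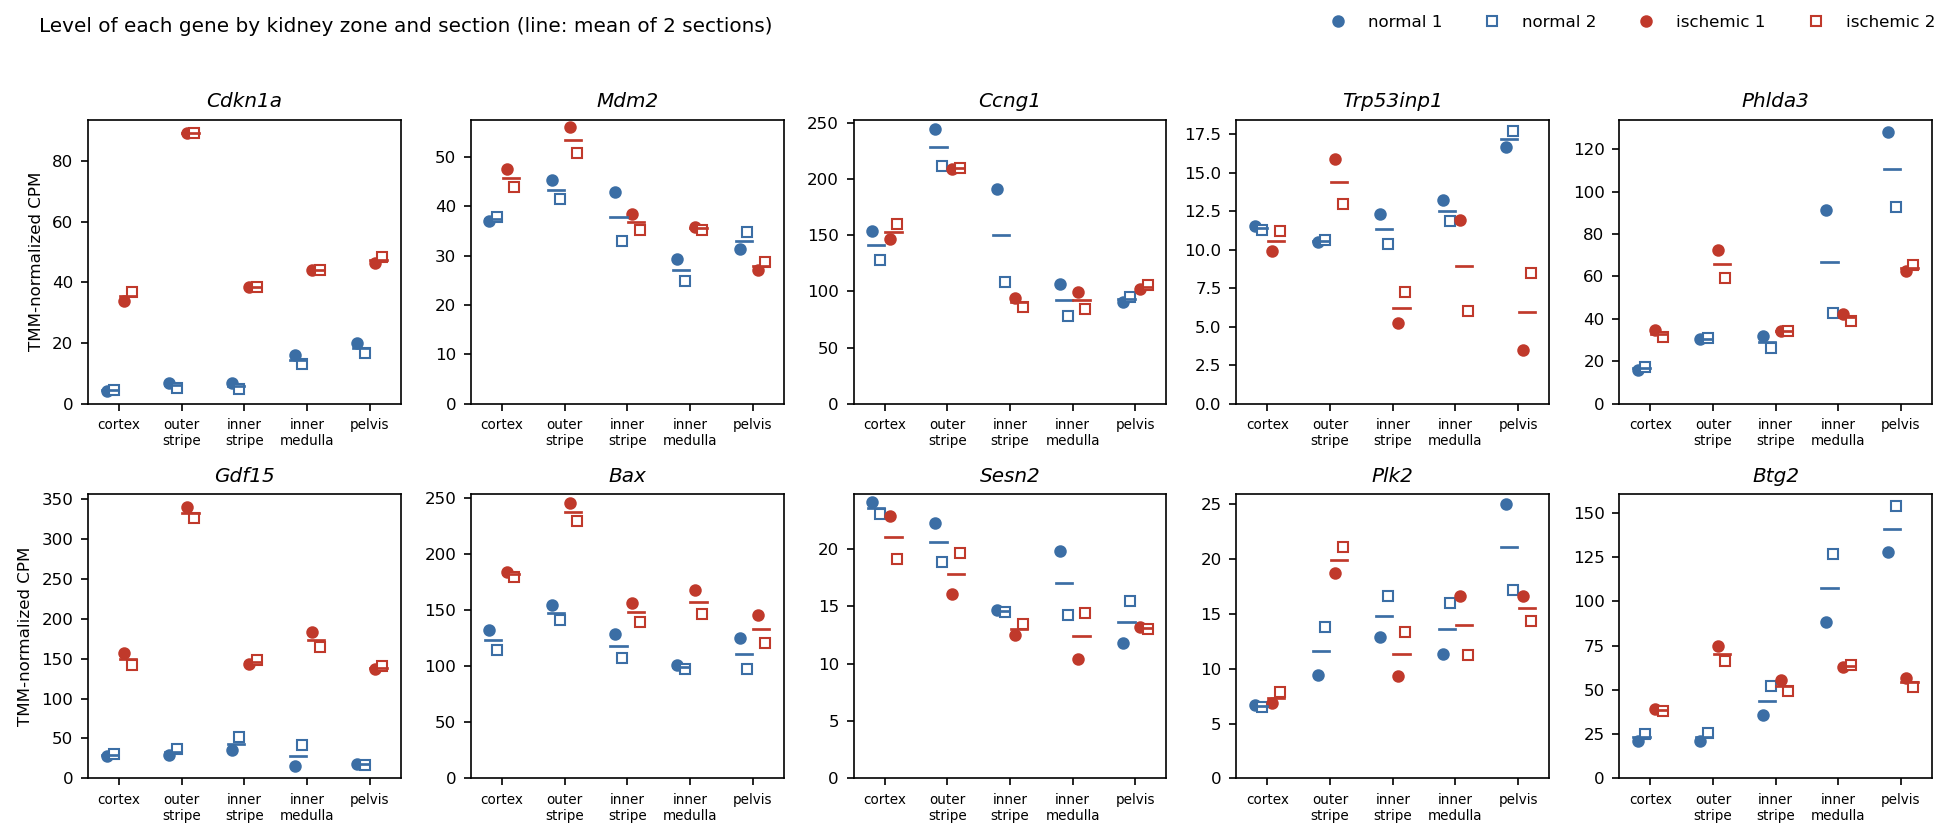
Level of each of the 10 genes by kidney zone, in TMM-normalized CPM on the y axis of each panel, which starts at 0, with 1 point per section and a line at the mean of 2 sections. *Cdkn1a* and *Gdf15* sat higher in both ischemic sections in all 5 zones and highest in the outer stripe, at 89.5 and 89.2 CPM and at 339.7 and 326.4 CPM, while *Btg2* and *Phlda3* were higher with ischemia in cortex and outer stripe and lower in inner medulla and pelvis.

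Among zones, the level of *Cdkn1a* in the ischemic sections was highest in the outer stripe, the zone that holds the straight part of the proximal tubule. There it was 6.89 and 5.11 CPM in normal and 89.5 and 89.2 CPM in ischemic sections, a log2 fold change of 3.87 ± 0.14 (SE; edgeR adjusted p = 2.24e-13). In the cortex it was 4.13 and 4.57 CPM in normal and 33.9 and 36.8 CPM in ischemic sections, a log2 fold change of 3.02 ± 0.14. The groups did not overlap in either zone. Levels by zone were normalized apart from those of whole sections and are not on the same scale.

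The inner medulla and pelvis had higher levels of *Cdkn1a* than the cortex in normal sections. The inner stripe had *Cdkn1a* at 6.68 and 4.84 CPM in normal and 38.4 and 38.4 CPM in ischemic sections, and in the inner medulla at 16.0 and 13.0 CPM against 44.0 and 44.0 CPM. In the pelvis it was at 20.1 and 16.6 CPM against 46.4 and 48.3 CPM. The order of zones thus differed between groups: pelvis, inner medulla, outer stripe, inner stripe and cortex in normal sections, and outer stripe, pelvis, inner medulla, inner stripe and cortex in ischemic sections. In normal sections the ranges of outer stripe and inner stripe overlapped, and no other neighbours in these orders did. The normal levels rest on few UMIs, 64 and 48 in the cortex and 31 and 14 in the inner stripe. There were 17 and 22 in the inner medulla and 29 and 29 in the pelvis. Small differences between normal zones, such as inner stripe over cortex, may thus be counting error. The log2 fold changes were 2.69 ± 0.18 in the inner stripe and 1.63 ± 0.20 in the inner medulla, both past the threshold under all 11 alternatives tried. With zones set without neighbours the inner medulla change was 2.50.

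Counts per spot were low. Over the outer stripe, *Cdkn1a* had 71 and 40 UMIs in normal sections and 869 and 736 UMIs in ischemic sections, and no spot of any section held more than 11. The share of outer stripe spots with at least 1 UMI was 8.09% (95% Clopper-Pearson interval 6.30 to 10.2) and 4.88% (3.51 to 6.58) in normal sections. It was 66.3% (62.5 to 70.1) and 56.5% (52.7 to 60.3) in ischemic sections. Because a deeper spot shows a gene more often, each spot was also thinned to 2000 UMIs, which left 0.499% and 0.504% of normal and 17.3% and 14.0% of ischemic outer stripe spots with a UMI. In the cortex the thinned shares were 0.514% and 0.806% against 7.03% and 6.56%. The outer stripe held 51.7% and 50.5% of all *Cdkn1a* UMIs of the ischemic sections and 32.9% and 33.4% of their UMIs. In the normal sections it held 33.5% and 26.1% of *Cdkn1a* UMIs and 34.9% and 36.1% of all UMIs.

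**Figure D2:**
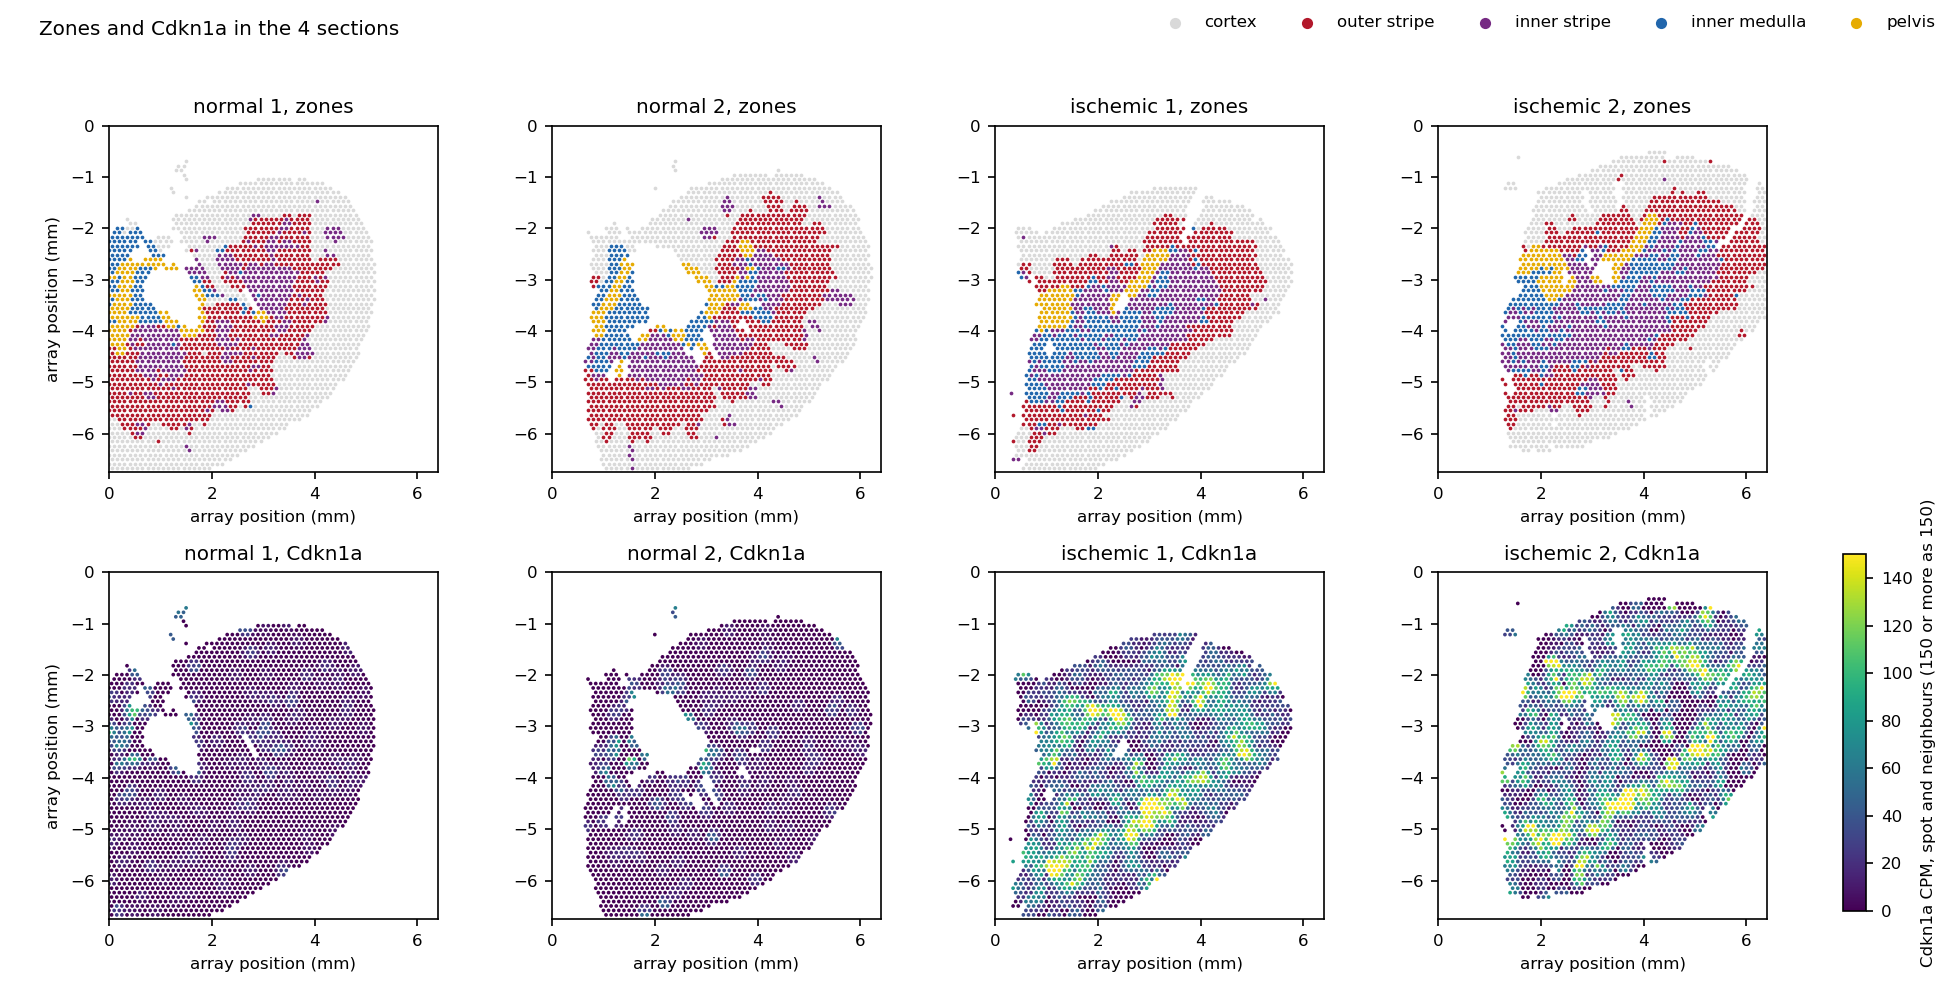
Maps of the 4 sections, with both axes giving array position in mm. The upper row colors each spot by zone, and the lower row by *Cdkn1a* CPM in the spot and its neighbours, where values of 150 or more share the top color. Ischemic sections show a band of high *Cdkn1a* along the outer stripe, whose spots had a median of 81.4 and 79.8 CPM against 28.9 and 29.9 CPM in the cortex, and normal sections show it highest in the pelvis and inner medulla.

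*Gdf15* encodes a secreted stress cytokine of the TGF-β family. Its outer stripe level was at 28.9 and 37.0 CPM in normal and 339.7 and 326.4 CPM in ischemic sections, and in the cortex at 27.6 and 30.9 CPM against 157.7 and 141.5 CPM. All ischemic values lay above all normal values, and those of the outer stripe were the highest. The log2 fold changes were 3.34 ± 0.22 in the outer stripe (edgeR adjusted p = 4.12e-10), 2.36 ± 0.22 in the cortex, 1.77 ± 0.22 in the inner stripe and 2.51 ± 0.26 in the inner medulla. In the inner medulla the normal sections differed, at 15.1 and 42.1 CPM from 16 and 71 UMIs, and without normal section 2 the change there was 3.52. Ischemic sections were at 183 and 165 CPM there and at 137 and 140.3 CPM in the pelvis, where normal sections had 18.0 and 17.1 CPM. After thinning, *Gdf15* was seen in 42.8% and 40.6% of outer stripe spots of the ischemic sections and in 4.74% and 6.17% of those of the normal sections.

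Of the other genes that act on the cell cycle, *Btg2*, an antiproliferative cofactor that recruits mRNA deadenylases, changed in opposite directions in different zones. Its outer stripe level was 21.1 and 25.5 CPM in normal and 74.5 and 66.3 CPM in ischemic sections, and in the cortex at 21.0 and 25.1 CPM against 39.4 and 37.8 CPM. In the inner medulla it was at 88.6 and 126.9 CPM in normal and 62.8 and 64.0 CPM in ischemic sections. No groups overlapped in these 3 zones, with ischemic sections above normal ones in outer stripe and cortex and below them in the inner medulla. The log2 fold changes were 1.60 ± 0.17 in the outer stripe (edgeR adjusted p = 2.15e-07), 0.75 ± 0.17 in the cortex and -0.79 ± 0.19 in the inner medulla (edgeR adjusted p = 0.00296). The inner stripe groups, with 35.98 and 51.9 CPM against 55.5 and 49.0 CPM, overlapped and the change of 0.27 ± 0.18 did not pass the test. The cortex and inner medulla calls were lost without ischemic section 1 (0.73 and -0.75) and without ischemic section 2 (0.78 and -0.78), and the inner medulla call also with library totals (-0.63) and with zones set without neighbours (-0.44).

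*Plk2*, a polo-like kinase of early G1, rose in the outer stripe. It was at 9.41 and 13.8 CPM in normal and 18.7 and 21.1 CPM in ischemic sections there, without overlap, a log2 fold change of 0.79 ± 0.20 (edgeR adjusted p = 0.00211), which missed the threshold without ischemic section 2 (0.71). In the cortex it was at 6.71 and 6.47 CPM against 6.90 and 7.84 CPM and did not pass the test. Its groups overlapped in the inner stripe and inner medulla.

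*Ccng1*, the cyclin G1 gene, was lower with ischemia in the inner stripe. It was at 191.8 and 108.3 CPM in the inner stripe of the normal sections and at 94.5 and 85.9 CPM in that of the ischemic sections. The ischemic values were both lower, but the normal sections differed by more between themselves than the second of them did from the ischemic ones. It fell by 0.74 on the log2 scale (SE 0.20, edgeR adjusted p = 0.00514), and without normal section 1 the change was -0.21 and did not pass the test, as also without ischemic section 1 (-0.79) and 2 (-0.66) and with zones set without neighbours (-0.41). *Ccng1* in the outer stripe was at 245 and 212 CPM against 209 and 211 CPM, and its change of -0.12 ± 0.19 did not pass the test. This value turned to 0.28 with library totals and to 0.09 without normal section 1. In the spots called inner stripe, the outer stripe markers summed to 2572 CPM in normal section 1, 1346 CPM in normal section 2 and 225 to 239 CPM in ischemic sections, and the inner stripe markers to 9955 to 14606 CPM against 7181 to 7194 CPM. Their part in the fall of *Ccng1* was not tested.

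*Mdm2*, the ligase that marks p53 for degradation, differed little between groups. It was at 45.4 and 41.4 CPM in the outer stripe of normal and 56.0 and 50.9 CPM in that of ischemic sections, and in the cortex at 36.9 and 37.8 CPM against 47.4 and 44.0 CPM. Ischemic sections were higher in both zones without overlap. The log2 fold change was 0.30 ± 0.12 in the outer stripe (edgeR adjusted p = 0.0352) and 0.29 ± 0.12 in the cortex (edgeR adjusted p = 0.0515), so the former passed the threshold and the latter did not. Across alternatives the adjusted p of the outer stripe change ran from 0.000280 to 0.345, and the call was lost with DESeq2 (0.27), with zones set without neighbours (0.29) and without normal section 2 (0.23), ischemic section 1 (0.24) or ischemic section 2 (0.37). The whole-section call was lost with DESeq2 (0.22) and without ischemic section 1 (0.21) or 2 (0.33).

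Among the genes of cell death and survival signalling, *Bax*, the pore-forming effector of mitochondrial apoptosis, rose to a similar degree in 3 zones. It was at 154 and 141 CPM in the outer stripe of the normal sections and at 246 and 229.9 CPM in that of the ischemic sections. Its log2 fold changes were 0.69 ± 0.15 in the outer stripe (edgeR adjusted p = 0.000599), 0.56 ± 0.15 in the cortex and 0.67 ± 0.16 in the inner medulla. The inner stripe change of 0.32 ± 0.15 did not pass the test (edgeR adjusted p = 0.0880), although ischemic values, at 157 and 139.9 CPM, lay above the normal ones, at 129 and 108 CPM. The cortex call was lost without ischemic section 1 (0.55) or 2 (0.58), and the inner medulla and whole-section calls without ischemic section 1 (0.58 and 0.56). *Bax* overlaps the annotated gene *Gm45808* on the same strand, which is not among the genes counted.

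*Phlda3*, a repressor of AKT signalling, followed *Btg2* in direction by zone. It was at 30.3 and 31.0 CPM in the outer stripe of normal and 72.3 and 59.1 CPM in that of ischemic sections, and at 16.1 and 17.1 CPM against 34.6 and 31.5 CPM in the cortex. Both zones were higher with ischemia without overlap, with log2 fold changes of 1.10 ± 0.19 (edgeR adjusted p = 7.34e-05) and 1.00 ± 0.20 (edgeR adjusted p = 0.000603). The cortex call was lost without ischemic section 1 (0.93). *Phlda3* in the inner medulla was at 91.4 and 42.7 CPM in normal and 42.4 and 39.1 CPM in ischemic sections. Normal section 2 was thus close to the ischemic sections there, and the fall of -0.65 ± 0.25 (edgeR adjusted p = 0.0460) became -0.04 without normal section 1, when it no longer passed the test. That call was also lost without ischemic section 1 (-0.71) or 2 (-0.60), with library totals (-0.45) and with zones set without neighbours (-0.18).

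*Trp53inp1*, which promotes autophagy and cell death, was a low-count gene with 1277 UMIs in all. It was at 10.5 and 10.6 CPM in the outer stripe of normal and 15.8 and 13.0 CPM in that of ischemic sections, higher without overlap, and its log2 change of 0.46 ± 0.20 missed the threshold (edgeR adjusted p = 0.0592). It passed under 7 of 11 alternatives, among them library totals (0.86), leaving out boundary spots (0.60) and leaving out normal section 1 (0.55) or ischemic section 2 (0.59). Its inner stripe level was 12.3 and 10.4 CPM in normal and 5.22 and 7.22 CPM in ischemic sections, a fall of -0.88 ± 0.28 (edgeR adjusted p = 0.0126). That call was lost with library totals (-0.50), without normal section 1 (-0.69) or ischemic section 1 (-0.65) and with zones set without neighbours (-0.35).

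*Sesn2* encodes an antioxidant and leucine-sensing inhibitor of mTORC1, and it passed the test in no zone and not in whole sections. Its outer stripe level was 22.3 and 18.9 CPM in normal and 16.1 and 19.6 CPM in ischemic sections, and the groups overlapped. The log2 change of -0.22 ± 0.15 had an edgeR adjusted p of 0.227, and turned to 0.19 with library totals and to 0.01 without normal section 1. By edgeR its unadjusted p was above 0.05 in whole sections and each zone, at 0.0796 to 0.408. *Sesn2* overlaps *Gm12981*, which the annotation places on the same strand, so reads of these genes may not be separable.

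**Figure D3:**
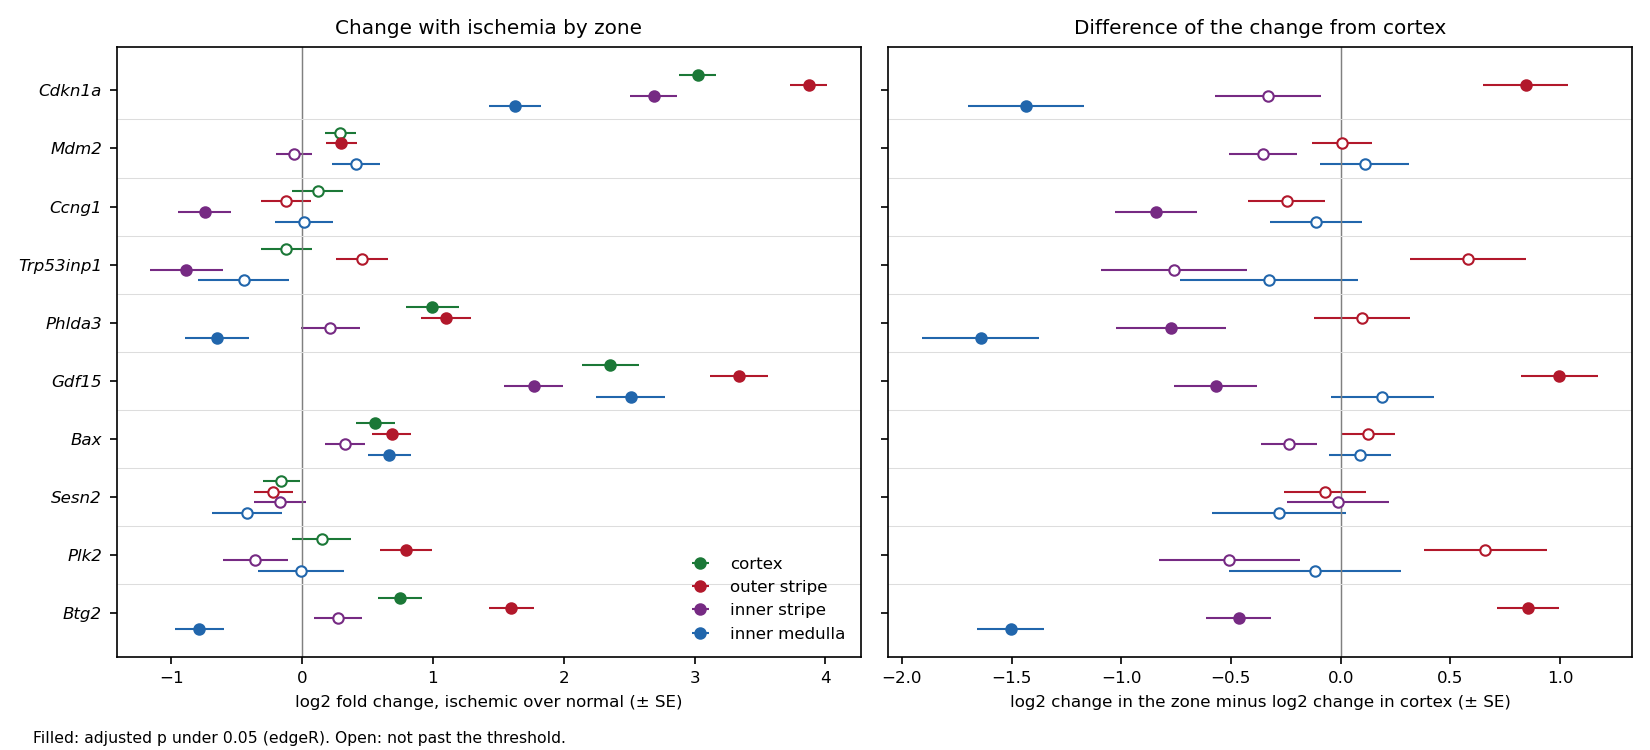
Left, log2 fold change of each gene in ischemic over normal sections in 4 zones; right, the change in a zone minus the change in cortex; points are edgeR estimates, bars are ± SE, and filled points passed the adjusted threshold of 0.05. *Cdkn1a* and *Gdf15* stand at 1.63 or more in every zone, and the inner stripe and inner medulla points of *Btg2* and *Phlda3* lie left of 0 in the right panel.

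Counted by zone, 7 of the 10 genes rose in the outer stripe, where 27.4% of 14174 genes were called higher and 29.5% lower (56.9% in all). In the cortex 5 rose (20.2% of all genes higher, 19.9% lower, 40.1% in all). In the inner stripe 2 rose and 2 fell (22.2% and 25.9%, 48.2% in all), and in the inner medulla 3 rose and 2 fell (13.9% and 21.2%, 35.1% in all). The medians of the log2 fold changes over the 10 genes were 0.74, 0.43, 0.08 and 0.00 in outer stripe, cortex, inner stripe and inner medulla, beside medians over all genes between -0.07 and 0.00. With library totals the medians over all genes became 0.39, 0.22, 0.36 and 0.10, and the share of higher genes among those called went from 48.2% to 69.3%, 50.3% to 67.6%, 46.1% to 66.7% and 39.6% to 50.6%. The number of the 10 genes called higher was then 8, 6, 4 and 4, and that of all 14174 genes was 5584, 3493, 4716 and 2351. In the cortex the count fell to 2 without ischemic section 1 and to 3 without ischemic section 2, and in the inner stripe and inner medulla it fell from 4 and 5 to 2 and 2 without ischemic section 1. It was 3 in the inner medulla without ischemic section 2. With zones set without neighbours, 5 rose in the inner stripe, where 3329 of 14559 genes did, and the falls of *Ccng1* and *Trp53inp1* were lost. Counted by overlap alone, 7, 8, 4 and 4 genes were higher in both ischemic sections in cortex, outer stripe, inner stripe and inner medulla (36.8%, 40%, 36% and 30.3% of all genes) and 2, 1, 3 and 2 were lower (36.8%, 41.4%, 35.8% and 34.4%).

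Whether the change itself differed between zones was tested as the change in a zone minus the change in cortex, with the section as a block. In the outer stripe 3 of the 10 genes rose more than in the cortex, where 8.05% of all genes did (13.5% less, 21.5% in either direction). These were *Gdf15* (1.00 ± 0.18, edgeR adjusted p = 0.000378), *Btg2* (0.85 ± 0.14, edgeR adjusted p = 0.000168) and *Cdkn1a* (0.84 ± 0.20, edgeR adjusted p = 0.00373). The median difference was 0.35 over the 10 genes and -0.02 over all genes. With library totals the share of positive differences among the genes called went from 37.4% to 61.5%, and the same number of the 10 genes, 3, passed. Of all 14174 genes, 3134 passed with that scaling. Without ischemic section 1 all 3 missed the edgeR threshold, with *Btg2* at 0.80 (adjusted p = 0.0526), *Gdf15* at 1.05 (adjusted p = 0.0656) and *Cdkn1a* at 0.79 (adjusted p = 0.104), and without ischemic section 2 *Btg2* alone passed. *Cdkn1a* also missed the threshold without normal section 2 (0.61).

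The differences that passed the test in the inner zones were negative. The change was smaller than in the cortex for 4 of the 10 genes in the inner stripe (13.9% of all genes, 5.14% larger, 19% in all) and for 3 in the inner medulla (9.7%, 3.3% larger, 13% in all). In the inner medulla these were *Phlda3* (-1.64 ± 0.27, edgeR adjusted p = 0.000280), *Btg2* (-1.51 ± 0.15, edgeR adjusted p = 2.04e-06) and *Cdkn1a* (-1.43 ± 0.27, edgeR adjusted p = 0.000975). *Phlda3* and *Btg2* kept this call under all 12 alternatives, with *Phlda3* at -0.99 without normal section 1, and *Cdkn1a* under all but zones set without neighbours, where its difference was -0.56. In the inner stripe *Ccng1* (-0.84 ± 0.19), *Phlda3* (-0.77 ± 0.25), *Gdf15* (-0.57 ± 0.19) and *Btg2* (-0.47 ± 0.15) passed, the last 3 with edgeR adjusted p of 0.0317 to 0.0399. *Gdf15* and *Btg2* passed under 2 of 12 alternatives, *Phlda3* under 4 and *Ccng1* under 9, and leaving out either ischemic section ended all 4 calls. With library totals the share of positive differences among the genes called went from 26.96% to 40.6% in the inner stripe, where 1 of the 10 genes and 2440 of all 14174 then passed. It went from 25.4% to 20.02% in the inner medulla.

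The pelvis was described without a test. There *Cdkn1a*, *Gdf15* and *Ccng1* were higher in both ischemic sections (27.5% of genes were higher without overlap), and 5 genes were lower without overlap (33.7% of genes). *Btg2* was at 128 and 154 CPM in normal and 56.8 and 51.5 CPM in ischemic sections. *Phlda3* was at 128 and 92.6 CPM against 62.4 and 65.2 CPM. *Mdm2*, *Plk2* and *Trp53inp1* were the others that were lower. In these spots the pelvis markers summed to 5215 to 6336 CPM in normal and 766 to 1116 CPM in ischemic sections, the T cell markers to 57.3 to 165 CPM against 3.23 to 3.96 CPM, and the adipocyte markers to 106 to 291 CPM against 0.793 to 1.62 CPM. Their part in the lower values was not tested.

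Markers of other cells moved beside these values. In the spots called inner medulla, the 6 pelvis markers summed to 916 to 2355 CPM in normal and 6.47 to 63.6 CPM in ischemic sections, the 3 adipocyte markers to 73.2 to 486 CPM against 0.381 to 0.853 CPM, and the 6 T cell markers to 36.3 to 126 CPM against 3.84 to 4.19 CPM. The 8 macrophage and monocyte markers summed to 509.5 to 667 CPM against 322 to 404 CPM there. The 4 red cell markers went from 17014 to 47938 CPM to 545 to 1047 CPM, the 6 cortex markers from 1174 to 1299 CPM to 105 to 132 CPM, and the 8 injured tubule markers from 1728 to 3799 CPM to 75686 to 82742 CPM. The part of these cells in the lower *Btg2* and *Phlda3* of the ischemic inner medulla was not tested. In the outer stripe, the 6 neutrophil markers summed to 1.29 to 1.303 CPM in normal sections, where *Ly6g* and *Retnlg* were at 0, and to 316 to 321 CPM in ischemic sections. *Ly6g* was also at 0 in the outer stripe of ischemic section 2. The 8 injured tubule markers summed there to 323 to 553 CPM in normal sections, where *Krt20* was at 0, and to 33052 to 33779 CPM in ischemic sections. Fibroblast and pericyte markers went from 122 to 147 CPM to 275 to 279.7 CPM, and T cell markers from 14.7 to 20.2 CPM to 1.37 to 1.498 CPM. Their part in the rises of the 10 genes was not tested.

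To set the genes beside *Havcr1*, the gene of kidney injury molecule 1, within a zone, ischemic spots were ranked by its level. That level was taken in the spot and its neighbours, and the top and bottom 25% of spots were compared in each section. In the cortex, *Cdkn1a* was at 37.0 CPM in the top and 24.97 CPM in the bottom spots of ischemic section 1 and at 42.6 and 22.9 CPM in ischemic section 2, ratios of 1.48 and 1.86. *Gdf15* had ratios of 1.75 and 2.02, *Phlda3* of 2.07 and 1.73, and *Bax* of 1.37 and 1.31. The ratios of *Btg2* were 1.09 and 1.07, and *Trp53inp1* went both ways, with 1.22 and 0.512. Outer stripe ratios of *Cdkn1a* were 1.19 and 1.03, and those of *Btg2* 0.890 and 1.04. With wider splits of 318 spots on each side the cortex ratios of *Cdkn1a* were 1.46 and 1.94. No test was made, since spots of a section are not replicates, and no ratios of other genes were computed. *Havcr1* in the top spots was at 3008 and 3293 CPM in the outer stripe against 2006 and 2102 CPM in the cortex. The part of nearness to the outer stripe in the cortex ratios was not tested. Spots rich in *Havcr1* were also deeper, with medians of 14099 against 10581.5 UMIs in the cortex of ischemic section 1 and 11820 against 6943 in that of ischemic section 2.

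**Figure D4:**
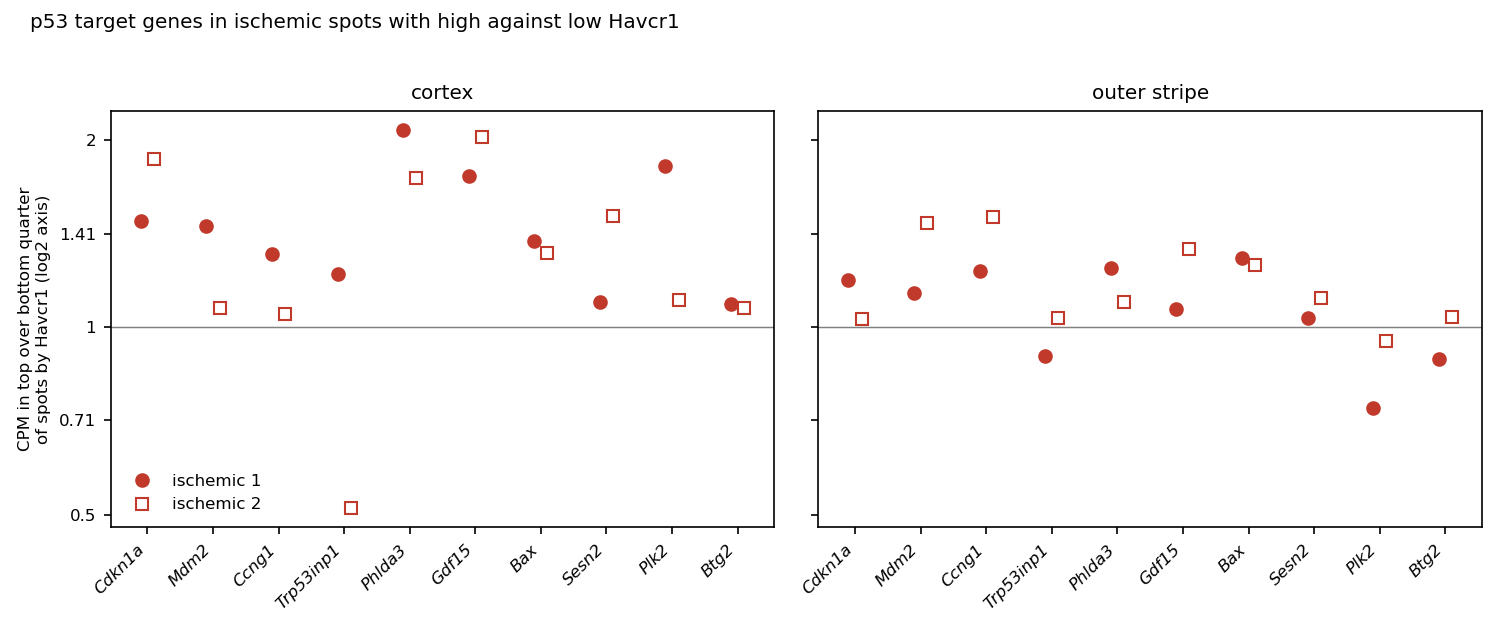
Ratio of each gene's CPM in the 25% of spots with the highest *Havcr1* to that in the 25% with the lowest, on a log2 axis, within cortex (left) and outer stripe (right), 1 point per ischemic section. In the cortex *Cdkn1a*, *Gdf15* and *Phlda3* lie at 1.48 to 2.07 in both sections. In the outer stripe *Cdkn1a* lies at 1.19 and 1.03, *Bax* at 1.29 and 1.26 and *Plk2* at 0.741 and 0.952.

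The gene of p53 itself and its regulators were set beside their targets. *Trp53* was at 11.2 and 11.6 CPM in the outer stripe of normal and 36.1 and 39.5 CPM in that of ischemic sections, a log2 fold change of 1.73 ± 0.14 (edgeR adjusted p = 5.18e-09). It was higher without overlap in all 5 zones, with log2 changes of 1.51 in the cortex, 1.31 in the inner stripe and 0.69 in the inner medulla. *Mdm4*, which binds and restrains p53 beside MDM2, overlapped between groups in all 5 zones, with 14.7 and 21.5 CPM against 16.9 and 20.6 CPM in the outer stripe. Of 11 tested genes among 14 of p53 and its regulators, 3 rose and 1 fell in the outer stripe, with a median of -0.07, where 27.4% of all genes rose and 29.5% fell. The others that rose were the checkpoint kinase gene *Chek1* (2.81 ± 0.74), which was at 0.0970 and 0.383 CPM in normal and 1.13 and 2.30 CPM in ischemic sections, and *Usp7*, the deubiquitinase of p53 and MDM2 (0.47 ± 0.12). The *Chek1* levels are low, so its fold change rests on few UMIs. *Prkdc*, the catalytic subunit of the DNA-dependent protein kinase, fell by 0.71 on the log2 scale.

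A further 35 genes reported as p53 targets did not move in 1 direction. Of 34 tested, 13 rose and 7 fell in the outer stripe, with a median log2 fold change of 0.24. The largest rises were those of *Sfn*, the 14-3-3σ gene of G2 arrest, from 10.3 and 14.3 CPM to 193 and 205 CPM (4.02 ± 0.18), *Plk3* from 5.62 and 6.90 CPM to 48.8 and 52.9 CPM (3.03 ± 0.21), and *Eda2r*, a TNF receptor family gene, from 0.485 and 0.128 CPM to 3.09 and 2.42 CPM (2.996 ± 0.551). The *Eda2r* levels are low, and its fold change rests on few UMIs. The largest falls were those of the adenylate kinase gene *Ak1* (-1.17 ± 0.17), the sestrin gene *Sesn1* (-1.17 ± 0.22) and the DNA repair gene *Xpc* (-0.96 ± 0.14). *Spata18* did not pass the filter on low counts. Among all genes 27.4% rose and 29.5% fell there. The counts were 9 and 3 in the cortex (20.2% and 19.9% of all genes) and 10 and 10 in the inner stripe (22.2% and 25.9%).

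Among relatives of the 10 genes, 6 of 13 rose and 4 fell in the outer stripe (median 0.43), where 27.4% and 29.5% of all genes did. *Phlda1*, a paralog of *Phlda3*, rose from 5.14 and 7.03 CPM to 58.1 and 50.3 CPM, and *Btg3* rose from 10.6 and 13.4 CPM to 45.8 and 46.2 CPM. *Trp53inp2*, the paralog of *Trp53inp1*, fell from 91.6 and 89.2 CPM to 34.5 and 31.3 CPM, and *Tob1*, of the BTG family, from 52.0 and 77.5 CPM to 24.0 and 28.3 CPM. Of 11 tested genes of the BCL2 family, to which *Bax* belongs, 3 rose and 2 fell (median 0.02), beside the same 27.4% and 29.5% of all genes. The pore former *Bak1* (1.77 ± 0.15) and the survival genes *Bcl2l1* (1.31 ± 0.14) and *Mcl1* (0.84 ± 0.12) rose, and the proapoptotic genes *Bik* (-0.60 ± 0.13) and *Bad* (-0.51 ± 0.16) fell.

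Other genes of the cell cycle were also described in the outer stripe. Of 5 tested CDK inhibitors other than *Cdkn1a*, 1 rose and 2 fell, beside 27.4% and 29.5% of all genes. *Cdkn2b* rose from 1.26 and 2.55 CPM to 5.25 and 3.63 CPM, while *Cdkn2c* fell from 9.504 and 12.5 CPM to 4.84 and 4.12 CPM and *Cdkn1c* from 7.27 and 6.51 CPM to 2.88 and 3.27 CPM. Of 7 tested cyclins and CDKs of G1, 6 rose and 1 fell (median 0.91), where 27.4% and 29.5% of all genes did. *Ccnd1*, the cyclin D1 gene, rose from 55.1 and 53.9 CPM to 131 and 135 CPM, its partner kinase *Cdk6* from 10.1 and 11.9 CPM to 38.6 and 46.3 CPM, and *Ccne1*, the cyclin E1 gene, by 3.07 ± 0.58 on the log2 scale. The *Ccne1* levels are low, at 0.388 and 0.383 CPM in normal and 4.32 and 2.42 CPM in ischemic sections. *Ccnd3* fell (-0.48 ± 0.12). Of 12 genes of G2 and mitosis, 1 rose and 2 fell, beside the same 27.4% and 29.5% of all genes. The mitotic kinase *Cdk1* rose from 1.55 and 1.02 CPM to 4.63 and 3.88 CPM, while the proliferation marker *Mki67* fell from 2.13 and 2.17 CPM to 0.309 and 0.848 CPM and the centromere histone gene *Cenpa* from 5.82 and 4.34 CPM to 1.24 and 2.06 CPM. The other 9 did not pass the test, and these are low counts.

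Genes of the other inputs named above, the integrated stress response and the immediate early response, were counted in the same way. Of 11 tested genes of the integrated stress response, 10 rose, with a median log2 fold change of 2.66, and for 7 of the 11 the change exceeded that in the cortex. Among all genes 27.4% rose in the outer stripe and for 8.05% the change exceeded that in the cortex. *Chac1*, a glutathione-degrading enzyme, went from 1.16 and 1.66 CPM to 24.3 and 27.02 CPM, and *Trib3*, a pseudokinase, from 1.36 and 0.894 CPM to 17.1 and 18.4 CPM. *Slc7a11*, the cystine transporter, was at 0.388 and 0 CPM in normal and 11.4 and 10.9 CPM in ischemic sections. Of 13 immediate early genes, 10 rose (median 1.74) and for 8 the change exceeded that in the cortex, beside the same 27.4% and 8.05% of all genes. *Fosl1* went from 0.0970 and 0.383 CPM to 121 and 124 CPM, *Myc* from 2.13 and 4.73 CPM to 60.9 and 56.5 CPM, and *Egr2* from 0.388 and 0.255 CPM to 11.8 and 9.33 CPM. These 3 encode transcription factors.

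Across the 20 libraries of section and zone, the genes whose log2 CPM followed that of *Cdkn1a* most closely included *Krt20* (Pearson r = 0.98), *Ccr1* (0.98), *Eif4ebp1* (0.98) and *Tpm4* (0.97). These libraries share sections and carry the difference between conditions, so r is a description. Within the 10 ischemic libraries they included *Flnc* (0.99), *Npm1* (0.98), *Rras2* (0.98) and *Dusp5* (0.98). The closest gene to each other member over 20 libraries was *Cfap298* for *Mdm2* (0.90), *Cers6* for *Ccng1* (0.96), *Acbd6* for *Trp53inp1* (0.84), *Lamb3* for *Phlda3* (0.94), *Ranbp1* for *Gdf15* (0.96), *Ube2n* for *Bax* (0.97), *Prcp* for *Sesn2* (0.90), *Ptpre* for *Plk2* (0.85) and *Hspa1b* for *Btg2* (0.96). None of these closest genes was another of the 10.

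Among themselves the 10 genes did not follow a single pattern. Within the 10 ischemic libraries, *Cdkn1a* correlated with *Gdf15* at r = 0.92, with *Plk2* and *Phlda3* at 0.79 each, with *Btg2* at 0.75 and with *Sesn2* at 0.13. High values were also found for *Mdm2* with *Bax* (0.92), *Ccng1* with *Bax* (0.88) and *Mdm2* with *Ccng1* (0.81). These genes were not separate from the first ones, since *Gdf15* stood at 0.85 with *Bax*, 0.75 with *Ccng1* and 0.73 with *Mdm2*, and *Cdkn1a* at 0.66 with *Ccng1*, 0.65 with *Bax* and 0.46 with *Mdm2*. *Mdm2* with *Phlda3* and *Plk2* stood at -0.05 and -0.06. These values describe 5 zones in 2 sections and carry no test.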

How the data were processed

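Visium data of 4 kidney sections were used. The authors ran Space Ranger (version 1.3.0 per the file headers) on mm10 and deposited unnormalized UMI counts of each gene in each spot, with positions. Their annotation was not stated in what was read. Groups came from the labels. The sections share 1833 to 2137 spot barcodes pairwise, because every Visium area carries the same set.

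The 10 genes and all lists were chosen with earlier results of these data known. Named genes were the 10, *Havcr1*, *Lcn2*, *Trp53*, *Mdm4*, the up to 3 largest rises and falls past the threshold per list in the outer stripe, and the genes most like each member, of which some are not reported here. Zones came from marker lists (6 cortex, 5 outer stripe, 4 inner stripe, 5 inner medulla and 6 pelvis genes): log2(CPM + 1), from the pooled counts of the spot with at most 6 neighbours, was averaged per list and standardised within the section, and the highest score among the first 4 lists gave the zone. Pelvis needed at least 10 counts and a score in the top 5%.

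Counts were summed per section, or by zone where a section had 20 or more such spots, and tested with edgeR 4.0.16 in R 4.3.3 (TMM, filterByExpr, quasi-likelihood, Benjamini-Hochberg, 0.05): 1 group per condition and zone, or the section as a block for differences between zones. Levels are TMM-normalized CPM. The study describes 2 mice per condition with technical replicates without saying which section is whose, so the spread between sections may be technical. P-values of whole sections measure that spread. Those of single zones measure the spread between the 2 sections of a condition within a zone, pooled over the 20 libraries of section and zone. They were fitted without a section block. P-values of differences between zones measure the spread that section, zone and zone by condition terms leave among these libraries. Zones of 1 section are not independent, so the p-values of zones can overstate the evidence of 4 sections. Spots were never replicates. Intervals are 95% Clopper-Pearson and cover counting error only. DESeq2 1.42.0 was an alternative, and the other alternatives are given with their effects. On simulated data with 200 changed genes edgeR recovered 139 of 200 with 2 false calls in whole sections (15305 genes), 120 with 5 in the outer stripe and 98 with 4 for outer stripe minus cortex (14174 genes). At 8-fold it recovered 47, 45 and 42 of 50, at 2-fold 36, 23 and 16, and at 1.5-fold 6, 4 and 1. Changes of 1.5-fold were thus mostly missed there, and a gene that did not pass may still have changed by a small amount. Each simulated library was drawn independently with a single fixed spread and no section effect, whereas the real zones share sections. The recovered and false calls need therefore not hold for the real data. Gene IDs were matched to GENCODE M21 (99.6% of 32285), and sequences were read from RefSeq GRCm38.p6. Image scale factors were not used.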

Additional observations from a re-analysis of the deposited data

Results flagged for a closer look

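The change with ischemia differed between zones, by edgeR's test of the difference itself with the section as a block, for 10 pairs of gene and zone. In the outer stripe the log2 change exceeded that in the cortex for *Btg2* (0.85, edgeR adjusted p = 0.000168), *Gdf15* (1.00, edgeR adjusted p = 0.000378) and *Cdkn1a* (0.84, edgeR adjusted p = 0.00373). In the inner stripe it was smaller than in the cortex for *Ccng1* (-0.84, edgeR adjusted p = 0.00265), *Btg2* (-0.47, edgeR adjusted p = 0.0317), *Phlda3* (-0.77, edgeR adjusted p = 0.0345) and *Gdf15* (-0.57, edgeR adjusted p = 0.0399). In the inner medulla it was smaller for *Btg2* (-1.51, edgeR adjusted p = 2.04e-06), *Phlda3* (-1.64, edgeR adjusted p = 0.000280) and *Cdkn1a* (-1.43, edgeR adjusted p = 0.000975). These calls were not equally stable over 12 alternatives. In the order given, outer stripe calls held under 11, 10 and 9 and inner stripe calls under 9, 2, 4 and 2. Those of the inner medulla held under 12, 12 and 11. The zones of the ischemic sections rest on markers that changed with ischemia themselves, and the part of this in the differences was not tested.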

How the results depend on the processing

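Over whole sections and the 4 zones, the *Cdkn1a* and *Gdf15* calls were kept under every alternative run, with log2 changes of 3.10 to 3.43 and 2.63 to 3.03 in whole sections and of 1.43 to 2.50 and 2.02 to 3.52 in the inner medulla, where they moved most. Counting each called gene under each alternative, 332 values stayed past the threshold and 75 did not, all in the same direction. That tally includes the differences between zones. Genes that were not called were counted only in whole sections and the outer stripe. Their values stayed so in 39 cases, passed in 10 and turned sign in 8. With library totals in place of TMM factors, the whole-section changes of *Ccng1*, *Trp53inp1* and *Sesn2* turned to 0.20, 0.20 and 0.079, and the outer stripe changes of *Ccng1* and *Sesn2* to 0.28 and 0.19. Leaving out 1 section at a time, *Ccng1* ran from -0.27 to 0.094 in whole sections and from -0.23 to 0.086 in the outer stripe, and *Sesn2* from -0.36 to 0.010 in the outer stripe. The cause was not tested.

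Leaving out 1 section, the number of the 10 genes called ran from 4 to 9 in whole sections, 2 to 7 in cortex, 2 to 5 in inner stripe and 2 to 5 in inner medulla, and from 0 to 3 for outer stripe minus cortex and 0 to 3 for inner stripe minus cortex. The number of all genes called ran from 2508 to 7092 in cortex, 4221 to 7513 in inner stripe, 2549 to 4563 in inner medulla, 740 to 3846 for outer stripe minus cortex, 903 to 3628 for inner stripe minus cortex and 514 to 2343 for inner medulla minus cortex. The lowest counts came without an ischemic section, which leaves 1 sample in that group, assumed to vary like the others. With zones set without neighbours, 3 of the 10 genes passed in the inner medulla (5 as reported), and without the low-count filter 5 passed for outer stripe minus cortex (3 as reported). Of all genes, 6178 of 14559 passed in that inner medulla setting (4979 of 14174 as reported). For outer stripe minus cortex, 3322 of 21330 passed without that filter (3048 of 14174 as reported). For inner stripe minus cortex, 4 of the 10 genes passed as reported, 1 with DESeq2, 1 with library totals and 2 without the low-count filter. Their number was 2 with the replicate block, 1 with zones set without neighbours, and 2 without *Cryab* and *Akr1b3* among the markers. Without the section block all 4 missed the edgeR threshold. Without that block 1665, 1580 and 1029 genes in all passed for outer stripe, inner stripe and inner medulla minus cortex, against 3048, 2700 and 1843 as reported. Of all genes, those that passed for inner stripe minus cortex were 2212 with DESeq2, 2440 with library totals and 2114 with the replicate block. They were 2796 of 21330 without the low-count filter, 2265 of 14559 with zones set without neighbours and 2761 of 13906 without *Cryab* and *Akr1b3*.

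The labels number the sections 1 and 2 in each group. Deviations of same-numbered sections correlated at r = 0.159 over 15305 genes, and with 2 pairs the numbers are only shared names. With the replicate block, 7 of the 10 genes passed in whole sections, 6 in cortex, 8 in outer stripe, 5 in inner stripe and 5 in inner medulla, and 10089 genes passed in whole sections (9279 without the block). Low counts limit *Trp53inp1*, *Plk2* and *Sesn2* most.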
